A study of Tribolium castaneum with 16 samples.

Results

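Open chromatin of whole embryos of the red flour beetle Tribolium castaneum aged 0 to 24 h after egg laying was compared with that of whole embryos aged 24 to 48 h. The comparison used the 4 peak lists whose sample titles name the 0hr and 24hr FAIRE libraries, 2 lists at each age, out of the 16 samples of the series, 14 of which had a peak list. FAIRE-seq sequences the DNA that stays in the aqueous phase when fixed, sheared chromatin is extracted with phenol and chloroform, and this DNA is enriched in stretches with few nucleosomes. Both ages were embryos of the Georgia I strain, for which the labels name no treatment or transgene. They were collected over 24 h and aged at 30 °C, fixed for 30 minutes at 25 °C, and their chromatin was sonicated to between 500 bp and 2 kb. Each library therefore mixed embryos whose ages differed by up to a day, and all of their tissues. In such mixtures, a region open in fewer cells and a region less open in each cell cannot be told apart. The labels give a replicate number for each list and do not say whether replicates came from separate egg collections, so the p-values below measure only the spread between these lists, which may be technical.

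Tribolium is a short-germ insect. The head and thorax are laid out in the blastoderm, and abdominal segments are added later from a growth zone at the posterior end while the germ band lengthens, after which organs form. Promoters and enhancers that are in use are typically depleted of nucleosomes, so a change in where open chromatin is found during embryogenesis is one way to look for stage-dependent regulatory DNA. The series named enhancer identification as its purpose, and the comparison of these ages asks which candidate regions were found early, later, or throughout.

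More chromatin was called open in the younger embryos. The 0 to 24 h lists held 31485 and 33884 peaks and the 24 to 48 h lists 18034 and 21309, so that the groups did not overlap, with a difference of 13013 peaks (exact two-sided permutation p = 0.33, the smallest that 2 against 2 lists allow). Peaks were also wider at the younger age, with median widths of 222 and 229 bp at 0 to 24 h and of 201 and 204 bp at 24 to 48 h (225.5 ± 4.95 against 202.5 ± 2.12 bp, SD, n = 2 each; exact permutation p = 0.33, two-sided). In lists cut to equal size, as described below, the difference in median width was 81 bp in place of 23. That cut kept 57.3% and 53.2% of the 0 to 24 h peaks but 100% and 84.6% of the 24 to 48 h peaks. The 81 bp therefore does not compare like parts of the lists. In the best 50% of each list by p-value the difference was 53 bp. The covered length was 9.56 and 10.6 Mb at 0 to 24 h against 4.83 and 5.77 Mb at 24 to 48 h (exact permutation p = 0.33, two-sided). The median of the authors' fold enrichment, the ratio of reads at a peak's summit to the background expected there by the peak caller, was 5.73 and 5.59 at 0 to 24 h and 5.20 and 5.25 at 24 to 48 h.

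Depth moved with age. The background depth of a list, the reads that the caller expected at a summit away from any local rise, was solved from the fold and p-value of each peak. It was 3.71 and 4.72 at 0 to 24 h and 1.89 and 2.08 at 24 to 48 h. By this measure both 24 to 48 h libraries were shallower than both 0 to 24 h libraries, and depth and age cannot be told apart in the deposited lists. The measure stands in for a read count, since total reads, the control library and read filters were unknown. The classes of regions below were therefore built from the deposited lists and again from lists cut to equal size, namely the best 18034 peaks of each by the authors' p-value, which is the length of the shortest list. In a further setting, pileup and background were scaled to the depth of the shallowest list, and peaks above the 10th percentile of its −log10 p were kept. The 0 to 24 h lists then held 25122 and 24480 peaks against 16230 and 18655 at 24 to 48 h. Scaling filtered peaks that had already been called at full depth and did not call peaks anew from fewer reads. It therefore cannot separate depth from age.

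**Figure D1:**
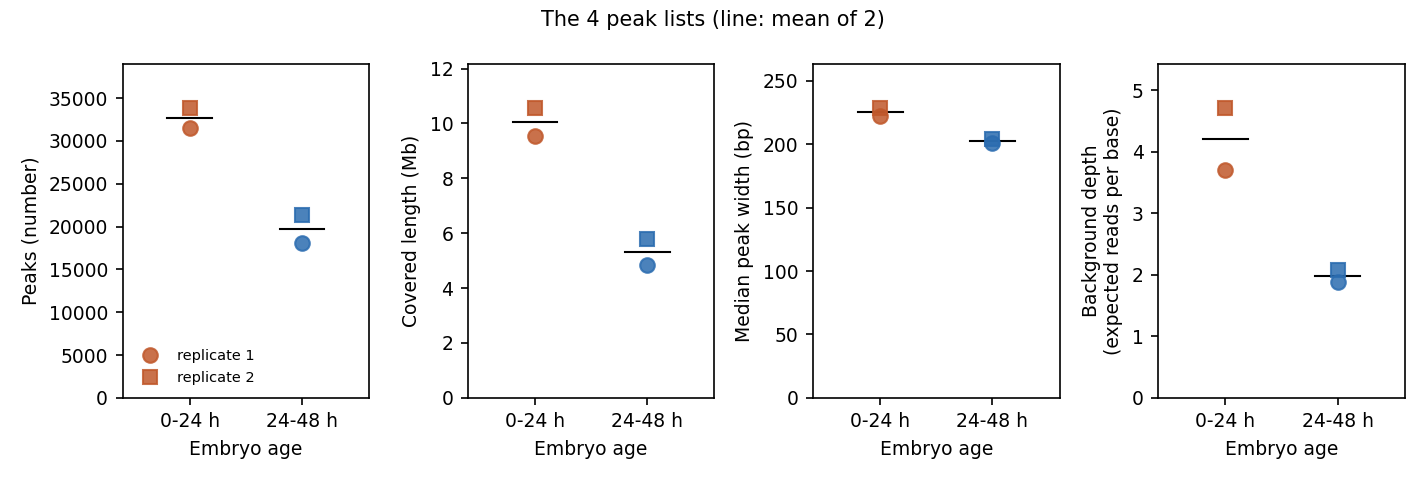
Number of peaks, covered length in Mb, median peak width in bp and background depth in expected reads per base in each of the 4 lists, by embryo age. Points are lists (circle replicate 1, square replicate 2) and lines are means of 2. In all 4 panels both 0 to 24 h lists lie above both 24 to 48 h lists.

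Merging peaks that overlapped by at least 1 bp gave 36589 regions. Of these, 13621 (37.2%) were called in all 4 lists, 9002 (24.6%) in both 0 to 24 h lists and in no 24 to 48 h list, and 374 (1.02%) in both 24 to 48 h lists and in no 0 to 24 h list. The 24 to 48 h lists were thus almost contained in the younger ones. Of 14256 regions called in both 24 to 48 h lists, 95.5% were also called in both 0 to 24 h lists and 2.62% in neither. Of 28417 regions called in both 0 to 24 h lists, 47.9% were called in both 24 to 48 h lists, 20.4% in 1 of them and 31.7% in neither.

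With lists of equal size the asymmetry was smaller. Merging then gave 24845 regions, of which 10635 (42.8%) were called in all 4 lists, 2064 (8.31%) only at 0 to 24 h and 1146 (4.61%) only at 24 to 48 h. Of 15219 regions called in both 0 to 24 h lists 69.9% were called in both 24 to 48 h lists, and of 13078 called in both 24 to 48 h lists 81.3% were called in both 0 to 24 h lists. The ratio of the classes thus differed between the deposited lists and lists of equal size, while the 0 to 24 h class was the larger in both settings. At equal size this order is tied to the rule of a call in both lists of an age. Regions called in a single list then numbered 896 and 1589 in 0 to 24 h replicates 1 and 2. In 24 to 48 h replicates 1 and 2 they numbered 2140 and 1237. The part of replicate agreement in the order of the classes was not tested. After scaling to one depth, 8664 regions (23.9%) were called only at 0 to 24 h, 407 (1.12%) only at 24 to 48 h and 13583 (37.5%) in all 4 lists. With the stricter threshold, these were 5109 (17.4%), 484 (1.65%) and 11640 (39.6%). Leaving out 1 list loosens the rule, so that the classes called at 1 age grow by construction. Without 0 to 24 h replicate 1 they held 13785 and 574 regions, and without 24 to 48 h replicate 2 they held 13602 and 1286. Without 24 to 48 h replicate 1 the later class held 654. These counts do not show how much a single list mattered.

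**Figure D2:**
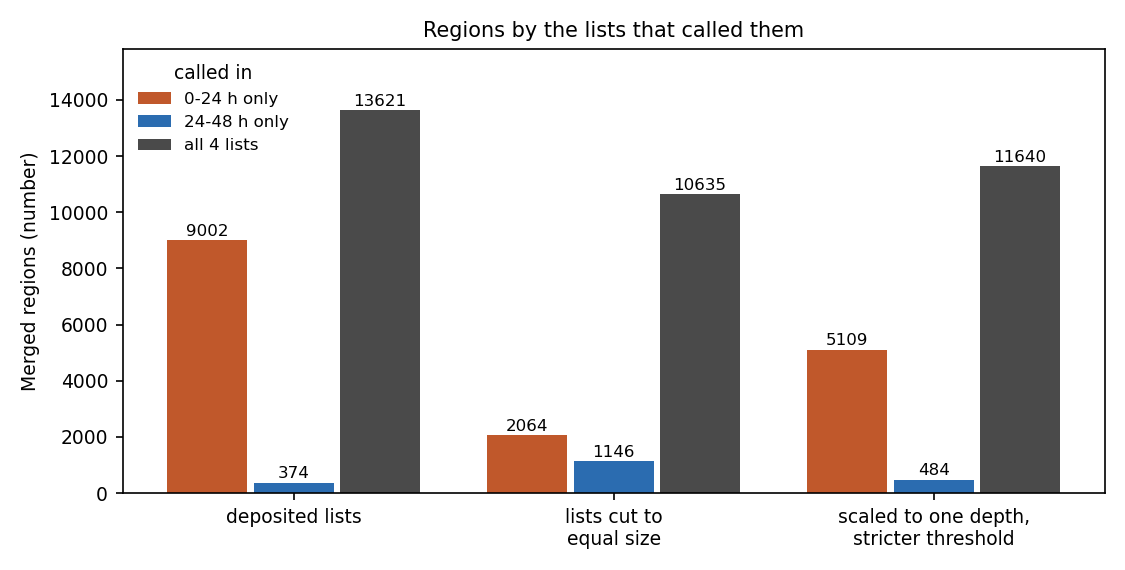
Number of merged regions called in both 0 to 24 h lists only, in both 24 to 48 h lists only, and in all 4 lists, with the deposited lists, with lists cut to equal size, and after scaling to one depth with the stricter threshold. Bars are counts, printed above them. The 0 to 24 h class falls from 9002 to 2064 and the 24 to 48 h class rises from 374 to 1146 when lists are cut to equal size.

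The classes at equal size were only partly those of the deposited lists. Of the 9002 regions called only at 0 to 24 h in the deposited lists, 1797 (20.0%) were in the same class at equal size, and of the 374 called only at 24 to 48 h, 209 (55.9%) were. In the other direction, 937 of the 1146 regions called only at 24 to 48 h at equal size (81.8%) overlapped a peak of at least 1 deposited 0 to 24 h list that the cut to equal size had removed. The corresponding figure for the 2064 regions called only at 0 to 24 h was 267 (12.9%). These shares depend on how much the cut removed and are not comparable with each other, since it kept 57.3% and 53.2% of the 0 to 24 h peaks but 100% and 84.6% of the 24 to 48 h peaks, and so left few older peaks of lower rank to find.

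The remaining 13592 regions of the deposited lists had mixed patterns. The largest of these held 4583 regions called in both 0 to 24 h lists and in 24 to 48 h replicate 2, against 1211 with 24 to 48 h replicate 1 in its place. Regions called in a single list numbered 4513 in 0 to 24 h replicate 2, which had the highest background depth of the 4 lists, and 1523 in 0 to 24 h replicate 1. They numbered 903 in 24 to 48 h replicate 1 and 163 in 24 to 48 h replicate 2. The 903 stood apart by location, since 29.9% of them lay on unplaced scaffolds, against 9.06%, 13.3% and 12.3% of the other single-list regions in that order. At equal size 24 to 48 h replicate 1 alone held 2140 regions, with 19.1% on scaffolds.

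Regions called at both ages were the widest and strongest. In the deposited lists the median width was 389 bp (quartiles 269 and 595) for regions called in all 4 lists, 195 bp (170 and 249) for regions called only at 0 to 24 h and 270 bp (210.25 and 373.5) for regions called only at 24 to 48 h. More than 1 peak in some list fell in 18.3% of the regions called in all 4 lists, in 2.2% of the 0 to 24 h class and in 5.61% of the 24 to 48 h class. Merging over 4 lists widens a region more than merging over 2, so part of the difference in width follows from the rule. In lists of equal size the medians were 396, 218 and 242 bp in the same order.

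Rank within a list also differed between the classes. In the 0 to 24 h lists, peaks of the 0 to 24 h class had a median fold of 4.54 and 4.72, at the 29.8th and 37.1st percentile of their lists, while peaks of regions called in all 4 lists had 7.85 and 8.22, at the 72.4th and 74.2nd percentile. Among the 10% of peaks with the highest fold, 95.5% and 93.2% lay in regions called in all 4 lists and 0.953% and 1.92% in the 0 to 24 h class. Among the 10% with the lowest fold, 46.7% and 31.6% lay in the 0 to 24 h class. In the 24 to 48 h lists, 1803 of 1804 and 2131 of 2131 peaks of the highest 10% lay in regions called in all 4 lists. No peak of the 24 to 48 h class was among them, and the class had its median fold of 4.31 and 3.40 at the 28.2nd and 6.95th percentile. At equal size the highest 10% still lay in regions called in all 4 lists in 96.7% to 99.6% of cases over the 4 lists. The 0 to 24 h class then held 14.4% and 11.4% of the lowest 10% of its lists, against 11.5% of each whole list. It held 17.1% to 18.7% and 14.9% to 16.7% of steps 2 to 4 of 10% from the lowest, and 0.610% and 1.05% of the highest 10%. The 24 to 48 h class held 8.65% and 21.1% of the lowest 10% of its lists, against 6.43% and 6.80% of the whole lists. Median percentiles were 33.8 and 38.8 for the 0 to 24 h class and 35.9 and 20.4 for the 24 to 48 h class. The strongest open chromatin of both ages was thus shared in both settings, and the regions called at a single age had medians in the lower part of the lists. Part of this follows from the rule. Each list ends at a cut by significance, which depends on fold, so weaker peaks are more easily absent from another list.

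**Figure D3:**
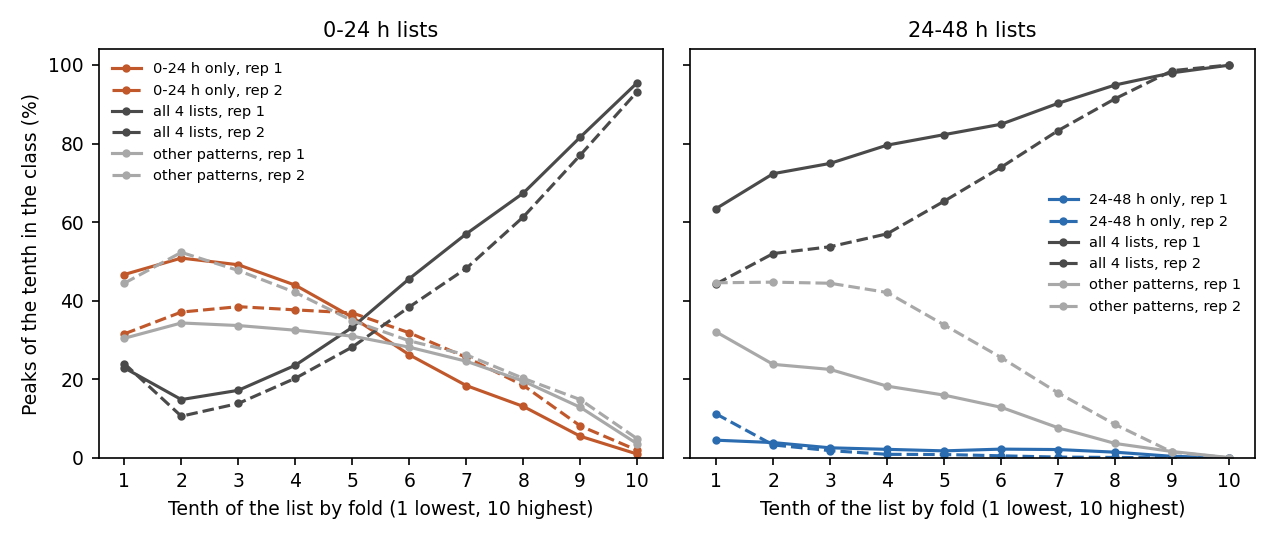
Share of peaks, in percent, that lay in each class of region, in steps of 10% of the deposited list in order of fold enrichment (1 lowest, 10 highest), for the 0 to 24 h lists (left) and the 24 to 48 h lists (right). Solid and dashed lines are replicates 1 and 2. Regions called in all 4 lists hold 93.2% or more of the highest 10% in each list, and regions called only at 0 to 24 h hold 46.7% and 31.6% of the lowest 10% in replicates 1 and 2.

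Some regions of the 0 to 24 h class were nonetheless strong. In the deposited lists, in 22 of the 9002 both peaks lay above the 90th percentile of their lists, and in 1519 (16.9%) both lay above the 50th, against 0 and 11 (2.94%) of the 374 regions of the 24 to 48 h class. Of the 13621 regions called in all 4 lists, 1079 and 6212 (45.6%) passed these percentiles in every list. The smallest fold of a region ranged up to 18.5 in the 0 to 24 h class and up to 7.47 in the 24 to 48 h class. In the deposited lists a region of the 24 to 48 h class had to be absent from both longer lists, which favours weak regions. At equal size the highest fold of that class was 14.2 and 12.8 in replicates 1 and 2, against 18.5 and 19.6 for the 0 to 24 h class. The 6 regions of each class with the highest percentile in their weaker list, among those that were in the same class at equal size, are described next. Gene content is not given, because the genome build of the coordinates is not given in the sources used here.

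First in the 0 to 24 h class came 297 bp of ChLG5, from 16391960 to 16392256, where the fold was 18.5 in replicate 1 and 19.6 in replicate 2. Next came ChLG7 from 19479453 to 19479754, where it was 17.0 and 19.6, and ChLG6 from 2471518 to 2471858, where it was 16.8 and 19.4. Both the first and the third had no peak in any of the 10 other lists of the series (48 to 72 h embryos, larval CNS and larval epidermis), and the second had a peak in both CNS lists alone. The region on ChLG5 from 17823741 to 17824186 reached 17.7 and 17.1 and also had no peak in the 10 other lists. Those on ChLG3 from 16839741 to 16839978 (folds of 17.6 and 16.4) and on ChLG10 from 7337931 to 7338229 (17.3 and 16.4) had a peak in both CNS lists and in 1 CNS list, respectively. Of these 6 regions, 1, the one on ChLG3, had a peak in a 48 to 72 h list, and none had one in epidermis.

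The regions of the 24 to 48 h class were weaker, and 3 of the 6 lay on scaffolds. Scaffold DS497868.1 had a region from 732 to 990 with folds of 9.35 and 7.47 in replicates 1 and 2, and ChLG8 one from 12013213 to 12013419 with folds of 6.24 and 7.79. Further regions were DS497695.1 from 57556 to 57762 (folds of 7.05 and 6.10) and ChLG4 from 13372219 to 13372427 (5.89 and 5.84). All 6, including ChLG10 from 7461675 to 7462025 (6.40 and 5.60) and DS497715.1 from 112743 to 112953 (5.89 and 5.52), had a peak in at least 1 of the 2 lists of 48 to 72 h embryos. Only DS497715.1 had one in CNS, in both lists, while ChLG10 had one in 5 of 6 epidermis lists and DS497695.1 in 1.

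Regions called in all 4 lists with the highest percentile in their weakest list were among the very strongest of every list. On ChLG4 the region from 13420592 to 13421177 had folds of 47.1 and 40.7 at 0 to 24 h and of 35.6 and 38.0 at 24 to 48 h, the highest fold of 0 to 24 h replicate 1 and of 24 to 48 h replicate 1. Those on ChLG7 from 1190774 to 1191664 (35.9, 33.6, 31.2 and 35.4) and on ChLG9 from 13924637 to 13925145 (37.4, 36.2, 29.5 and 33.4, both in the same order) were, like it, called in all 10 other lists. Scaffold GG694831 had such a region at its start (1 to 939; folds of 40.8, 35.7, 31.9 and 37.3), which had a peak in both 48 to 72 h lists and in no larval list. By width, the first was scaffold GG695826 from 1 to 13020, with folds of 3.56 and 2.70 at 0 to 24 h and of 7.0 and 6.14 at 24 to 48 h. The next was GG695415 from 12481 to 19748, with folds of 10.8 and 10.3 and of 5.89 and 5.84. The highest pileup, the reads stacked at a summit, was 250 in each of the 4 lists despite their unequal depths. This bounds the fold where background is high. The difference in fold at GG695826 is therefore not shown to be a change with age, and the part of this bound was not tested.

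Whether regions called at a single age were found at other times and in other tissues was read from the 10 lists that the classes did not use. The next embryonic stage, 48 to 72 h, had a peak in 10.2% and 2.23% (replicates 1 and 2) of the 0 to 24 h class, in 92.0% and 85.8% of the 24 to 48 h class, and in 81.1% and 58% of the regions called in all 4 lists. The same lists had a peak in 42.1% and 26.8% of all merged regions. At equal size the shares were 14.1% and 4.31% for the 0 to 24 h class, 76.1% and 51.5% for the 24 to 48 h class, 84.4% and 65.2% for the regions called in all 4 lists, and 58.6% and 38.6% for all merged regions. The 0 to 24 h class was lowest in both settings, while the 24 to 48 h class lay above the regions called in all 4 lists with the deposited lists and below them at equal size. Regions called only in the younger embryos were thus rarely called at 48 to 72 h, and those called only in the older were mostly still called. The 48 to 72 h libraries had a background depth of 1.92 and 2.53, near that of the 24 to 48 h libraries, and the part of this likeness in the result was not tested.

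Larval CNS, dissected from last-instar larvae of the pu11 strain, differed from the embryos in strain and fixation time as well as in tissue, and its lists were deeper (9.85 and 5.91 expected reads per base). Of the 0 to 24 h class 62.0% and 67.2% had a peak in CNS replicates 1 and 2, against 71.6% and 75.3% of all merged regions. Of the 24 to 48 h class 16.0% and 5.35% did, and 90.3% and 94.5% of the regions called in all 4 lists. In all, 5056 regions of the 0 to 24 h class (56.2%) were called in both CNS lists, 1941 (21.6%) in both CNS lists and in neither 48 to 72 h embryos nor epidermis, and 1781 (19.8%) in none of the 10 lists. At equal size these shares were 68.1%, 16.9% and 12.3% of 2064 regions.

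For the 24 to 48 h class the CNS share changed with list length. At equal size 63.5% and 62.7% of this class had a CNS peak, against 72.5% and 75.6% of the 0 to 24 h class and 79.9% and 83.5% of all merged regions. Split by location, 71.3% to 71.6% of its regions on linkage groups were called in a CNS list, against 24.2% to 28.0% of those on scaffolds.

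Epidermis of the T2 and T3 segments of pu11 larvae showed the opposite order. In the 6 epidermis lists 10.1% to 35.2% of the 0 to 24 h class had a peak (median 28.5%), against 47.3% to 91.4% of the 24 to 48 h class (median 87.7%) and 21.0% to 45.0% of all merged regions (median 41.0%). T2 replicate 1 (47.3%) and T3 replicate 1 (47.6%) stood below the other 4 lists (86.9% to 91.4%) for the 24 to 48 h class, although T3 replicate 1 had the highest epidermis share of the 0 to 24 h class. Of the 374 regions, 229 (61.2%) were called in both 48 to 72 h lists, in at least 4 epidermis lists and in no CNS list, a combination held by 3 of 9002 regions of the 0 to 24 h class (0.0333%) and by 2.04% of the regions called in all 4 lists. At equal size this combination was held by 241 of 1146 regions (21.0%) of the 24 to 48 h class, by 0.0969% of the 0 to 24 h class and by 1.52% of the regions called in all 4 lists. At equal size the epidermis shares overlapped, from 18.5% to 51.4% (median 45.2%) for the 0 to 24 h class and from 24.6% to 44.1% (median 42.4%) for the 24 to 48 h class, with both medians below the 50.6% of all merged regions.

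**Figure D4:**
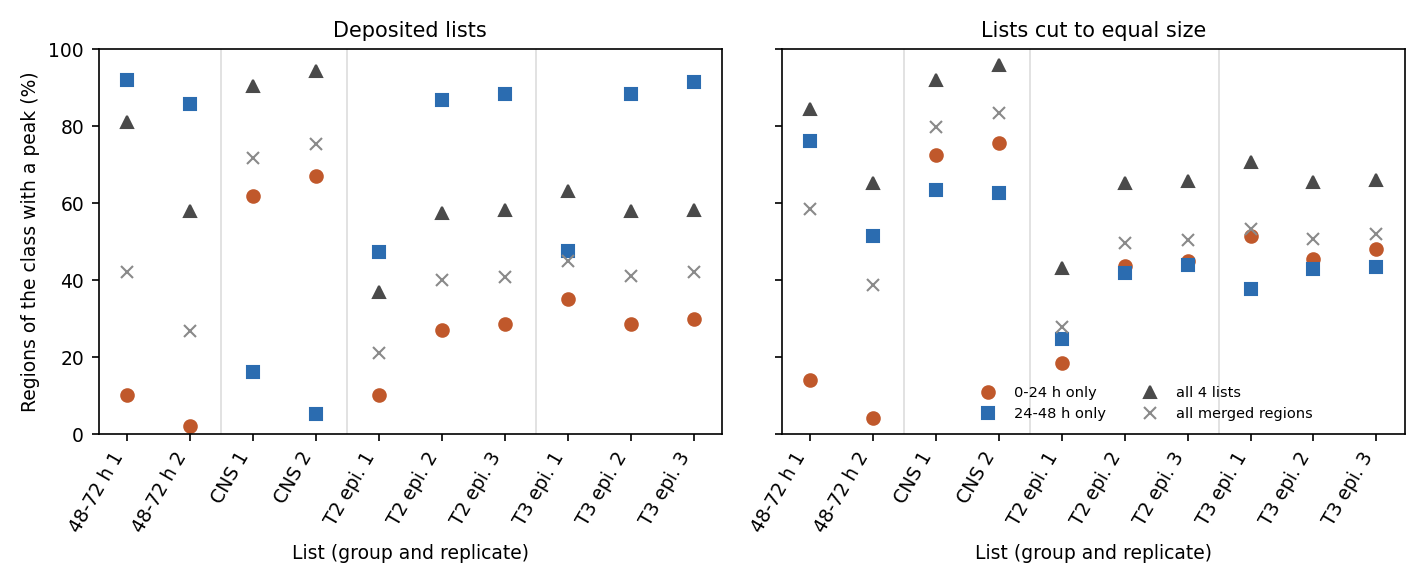
Share of regions, in percent, with a peak in each of the 10 lists that were not used to define the classes (48 to 72 h embryos, larval CNS, T2 and T3 epidermis, numbered by replicate), for the classes from the deposited lists (left) and from lists cut to equal size (right). Crosses give the share for all merged regions. The 24 to 48 h class lies at 85.8% or more in both 48 to 72 h lists and at 16.0% or less in CNS with the deposited lists.

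The 24 to 48 h class also differed in where it lay. Unplaced scaffolds held 121 of its 374 regions (32.4%), spread over 89 scaffolds with at most 6 regions each, against 10.5% of the 0 to 24 h class, 12.1% of regions called in all 4 lists and 11.5% of all merged regions. With lists of equal size the scaffold shares were 18.4%, 13.1%, 12.6% and 12.3%. With the deposited lists, regions of this class on linkage groups were close to those on scaffolds, with 91.3% and 84.6% called at 48 to 72 h, 19.4% and 5.93% in CNS, and a median of 86.2% over the epidermis lists. On scaffolds the values were 93.4% and 88.4%, 9.09% and 4.13%, and 90.1%. At equal size they were not close: linkage groups stood at 72.6% and 44.9% and scaffolds at 91.5% and 80.6% for 48 to 72 h, with medians of 36.1% and 70.1% over the epidermis lists and the CNS shares given above.

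With the deposited lists, peaks of the 24 to 48 h class sat on a raised background, which was not seen at equal size. In the deposited lists the background expected by the caller at the summit, divided by the smallest in the same list, had a median of 2.45 in replicate 1 and 2.56 in replicate 2 for this class, against 1.37 in both lists for regions called in all 4 lists and 1.2 and 1.21 for the 0 to 24 h class in its own lists. It exceeded 2 at 63.3% and 64.3% of the peaks of the 24 to 48 h class, at 26.1% and 26.3% of the 24 to 48 h peaks of regions called in all 4 lists, and at 12.4% and 12.6% of the peaks of the 0 to 24 h class. In lists of equal size the medians were 1.27 and 1.33 for the 24 to 48 h class, below the 1.42 and 1.45 of regions called in all 4 lists, and the shares over 2 were 28.8% and 31.9% against 29.7% and 30.4%. The control library is not given, so it could not be read whether this background came from a control or from the FAIRE library. It is therefore not shown to be a trait of the chromatin at this age. The part of this background in the calls was not tested.

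**Figure D5:**
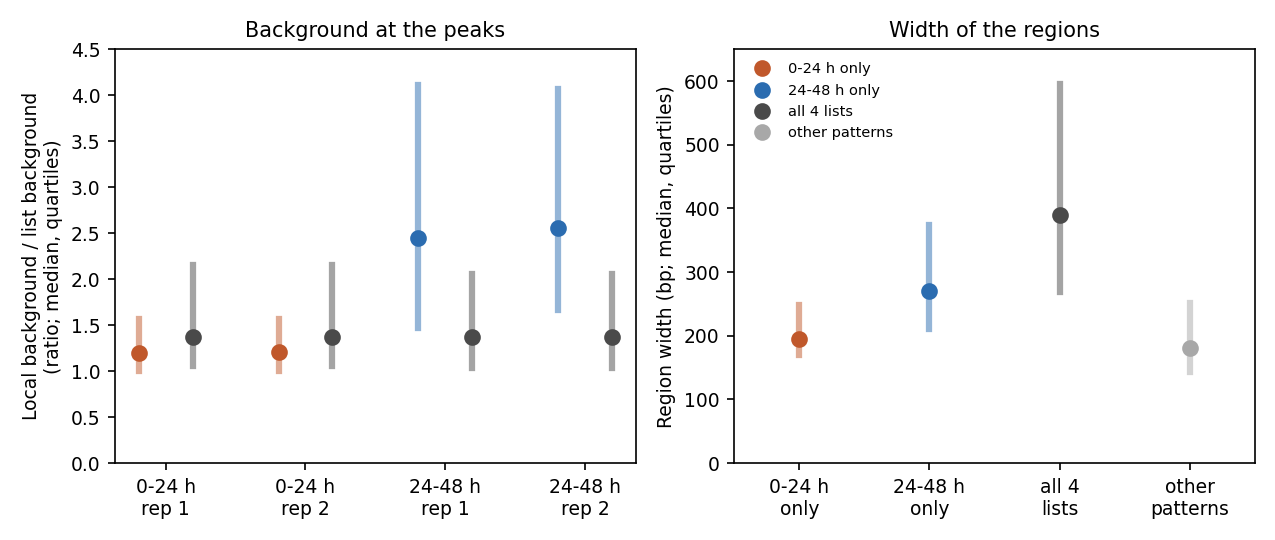
For the deposited lists: left, background expected at the peak summits relative to the smallest of the same list (ratio without unit), by list and class; right, width of the merged regions in bp by class. Points are medians and bars run between the quartiles. In these lists the 24 to 48 h class stands at 2.45 and 2.56 in the left panel, above the 1.37 of regions called in all 4 lists, whereas at equal size, not drawn, it was at 1.27 and 1.33 against 1.42 and 1.45.

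Along the 10 linkage groups the 0 to 24 h class and the regions called in all 4 lists were spread much alike. The 0 to 24 h class made up between 23.0% of the regions on ChLG3 and 26.4% on ChLG1, the X chromosome of Tribolium, and regions called in all 4 lists between 34.5% on ChLG1 and 38.4% on ChLG8. The small 24 to 48 h class varied more in proportion, from 0.431% on ChLG5 (18 of 4178 regions) to 1.76% on ChLG10 (23 of 1307). With lists of equal size it ranged from 3.19% on ChLG7 to 5.27% on ChLG10. At equal size the 0 to 24 h class was again least frequent on ChLG3, at 6.70%, and on ChLG1 it was 7.97%, below the 8.31% over all regions, so that its higher share on ChLG1 was not seen in both settings. Per Mb of linkage group, taken up to the last peak of any list, regions called in all 4 lists ranged from 40.4 on ChLG3 to 91.4 on ChLG4 and the 0 to 24 h class from 24.3 to 63.1 on the same groups.

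On the linkage groups, regions of the 0 to 24 h class lay about as near to the shared ones as other regions did. Their median distance to the nearest region called in all 4 lists was 3125.5 bp, against 2803 bp between regions called in all 4 lists, and 22.7% of them lay within 1 kb of one, against 22.6%. From the 24 to 48 h class and from the mixed patterns the median distance to a shared region was 2953 and 3191 bp. Of these regions 20.2% and 22.7% lay within 1 kb of one. Between regions of the 0 to 24 h class the median distance was 3705 bp, while that from a region called in all 4 lists to the 0 to 24 h class was 4817.5 bp. At equal size, 7.36% of the 0 to 24 h class had another such region within 1 kb, against 4.06% of the regions called in all 4 lists and 1.5% of the 24 to 48 h class.

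Shared regions could still change in rank. In lists of equal size, the fold percentiles of the 10635 regions called in all 4 lists were close between replicates, with Spearman's rho across regions of 0.900 at 0 to 24 h and 0.794 at 24 to 48 h, and less so between ages, with 0.526 to 0.651 over the 4 pairs. These are descriptions over regions, which are not independent and which share libraries. In 3649 regions (34.3%) both percentiles at 24 to 48 h lay above both at 0 to 24 h, and in 2947 (27.7%) both lay below. The gap was over 25 percentile points in 889 (8.36%) and 357 (3.36%) of the regions, in the same order.

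Regions that ranked higher at 24 to 48 h were also the ones found more often later. A peak in 48 to 72 h replicates 1 and 2 was present in 94.8% and 86.0% of them, in 71.7% and 46.0% of those that ranked higher at 0 to 24 h, and in 84.2% and 60.3% of those whose percentiles overlapped. In epidermis the medians over 6 lists were 80.3%, 58.2% and 58.1% in the same order, and in CNS the shares were 85.6%, 93.9% and 96.1% in replicate 1 and 94.1%, 96.0% and 97.3% in replicate 2. The regions ranking higher at 24 to 48 h lay on scaffolds in 20.8% of cases, against 8.25% of those ranking higher at 0 to 24 h. Their median relative background was 2.45 and 2.55 in the 0 to 24 h lists and 2.25 and 2.35 in the 24 to 48 h lists, against 1.18 and 1.18, and 1.19 and 1.18, in the regions that ranked higher at 0 to 24 h. On linkage groups alone the 48 to 72 h shares were 93.5% and 83.3% against 72.0% and 46.6%. The CNS shares turned direction there, with 96.5% and 97.6% in the regions ranking higher at 24 to 48 h against 94.7% and 96.5% in those ranking higher at 0 to 24 h. The background of the regions ranking higher at 24 to 48 h was still raised, from 1.96 to 2.06 over the 4 lists. The part in these ranks of the background, and of the highest pileup given above, was not tested.

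The widest gaps upwards were on scaffolds and the widest downwards on linkage groups. The first 4 upwards lay on scaffolds GG695273, GG695737, GG694863 and GG695131. On GG695273 the region from 778 to 1059 had folds of 5.26 and 4.08 at 0 to 24 h and of 23.3 and 17.8 at 24 to 48 h, and it was called in both 48 to 72 h lists, all 6 epidermis lists and no CNS list. On GG695737 the region from 682 to 969 had folds of 4.81 and 4.43 against 12.1 and 11, with the same presence in the other lists. Those on GG694863 from 374 to 953 (4.22 and 3.34 against 8.33 and 9.68) and on GG695131 from 1 to 262 (5.48 and 5.13 against 14.8 and 12.6) were called in both 48 to 72 h lists, all epidermis lists and 1 CNS list. The part in these gaps of the highest pileup, which was the same in lists of unequal depth, was not tested.

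Downwards, the widest gap was on ChLG7 from 18983132 to 18983410. Its fold was 17.6 and 18.5 at 0 to 24 h and 3.98 and 4.39 at 24 to 48 h, or the 94.7th and 94.9th percentile against the 19.3rd and 15.6th. It was called in both CNS lists and all 6 epidermis lists but in no 48 to 72 h list. The next were on ChLG4 from 5251223 to 5251574 (19.2 and 20.1 against 3.45 and 4.66) and on ChLG1 from 4379976 to 4380246 (12.9 and 15.4 against 3.86 and 4.26), both called in both CNS lists and in no 48 to 72 h list. The last, on ChLG4 from 2641360 to 2641711 (17.1 and 15.7 against 4.05 and 4.59), was called in both lists of 48 to 72 h embryos and of CNS and in 5 epidermis lists. Regions of this kind were called at both ages with the deposited lists and therefore belong to no one-age class, although their place in the lists changed by 68.1 to 75.5 percentile points.

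Overlap between lists gave the same order as the ranks. The Jaccard index of a pair, or the length that both lists cover as a share of the length covered by either, was 0.779 between the 0 to 24 h lists, 0.605 between the 24 to 48 h lists, and 0.382, 0.429, 0.494 and 0.547 between ages. The lists of an age were thus more alike than any pair across ages, and the means within and across ages differed by 0.229 (one-sided exact permutation p = 0.33, the smallest that the 3 pairings of 4 lists allow). Between lists of equal size the indices were 0.724 and 0.603 within an age and 0.451 to 0.578 between ages, and the means differed by 0.148 (p = 0.33 by the same exact test). The closest pair across ages in both settings was 0 to 24 h replicate 1 with 24 to 48 h replicate 2.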

How the data were processed

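FAIRE libraries of 4 whole-embryo samples were compared. Per the submitters' processing notes, tools named were Trimmomatic 0.32, Bowtie2 2.2.3, SAMtools 0.1.12a, deepTools 2.5.2 and MACS2 2.1.1.20160309. The control library, read filters and genome build are not given in the sources used here. The authors deposited 1 list of narrow peaks per sample. The fold enrichment is a ratio that the authors' peak caller computed at each summit over its local background, MACS2 being the caller that the submitters' processing notes name. The −log10 p-value and −log10 q-value of each peak were deposited by the authors from the same calls. The smallest −log10 q was 1.32 to 1.36 in the 4 lists, the value of a q near 0.05. The score column that the authors deposited, the whole part of 10 times −log10 q, played no role here. Total reads were unknown. The members and lists were chosen with earlier results of these data known.

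Peaks were merged across lists at an overlap of at least 1 bp. For equal sizes each list was cut to its best 18034 peaks by −log10 p. Fold percentiles are ranks within a list, recomputed after a cut. Pileup and background at each summit were solved from fold and p (fold as pileup plus 1 over background plus 1, p as the upper Poisson tail), and all pileups of the 4 lists were whole within 0.02. The smallest background of a list was taken as its depth. Scaling kept peaks whose p at the depth of the shallowest list passed its smallest −log10 p, 2.89, or, chosen after seeing the data because the former removed few peaks, its 10th percentile, 5.74. Single values per list were tested by exact permutation. Named regions followed a fixed rule: in each one-age class the 6 with the highest smallest percentile that kept their class at equal size, and of shared regions the 4 with the highest smallest percentile, the 2 widest, and the 4 with the widest rank gap each way. Merging, classes, overlap and depth recovery were tested on simulated data. Python 3.11.15 with pandas 2.3.3, numpy 2.4.6, scipy 1.17.1 and matplotlib 3.10.9 was used. Gene names and sequences are not given, since the reference at hand is of another assembly.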

Additional observations from a re-analysis of the deposited data

How the results depend on the processing

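All 4 tested differences (number of peaks, covered length, median width, overlap) kept their direction under every alternative run for each, and the exact permutation p of 0.33 is the smallest that 2 against 2 lists allow. The replicate numbers were not shown to pair the lists, since the correlation of replicate differences between ages was 0.149 over 13621 regions and there were only 2 pairs. With the replicate number as a block the peak difference stayed at 13013, the covered length at 4.76 Mb and the median width at 23 bp, with exact p = 0.5. The difference in median width went from 23 to 81 bp at equal list sizes and to 49 bp with the stricter depth threshold. Both settings removed a larger share of the 0 to 24 h lists than of the 24 to 48 h lists, so these widths do not compare like parts. The counts of regions called at 1 age also moved. The 0 to 24 h class held 2064 regions at equal list sizes, 4290 in the best 50% of each list and 5109 after scaling to one depth with the stricter threshold, chosen after seeing the data. With the planned threshold it held 8664. Leaving out 1 list gave 10212 to 13785, with 13785 without 0 to 24 h replicate 1 and 13602 without 24 to 48 h replicate 2. The 24 to 48 h class held 1146 regions at equal list sizes and 1015 with 200-bp summit windows. Leaving out 1 list gave 441 to 1286, with 1286 without 24 to 48 h replicate 2, 654 without 24 to 48 h replicate 1 and 574 without 0 to 24 h replicate 1. Regions called in all 4 lists numbered 6718 in the best 50% of each list, and 13726 to 18236 with 1 list left out. Fewer lists or fewer peaks loosen or tighten the rule by construction, and the cause was otherwise not tested. The counts of shared regions that changed rank were 3616 and 2770 with fold computed without the added 1, and 3100 and 2525 on linkage groups only. Background depth was lowest in both 24 to 48 h lists, so a region without a peak there was not detected at that depth and is not shown to be closed.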

Other observations

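The regions called in 24 to 48 h replicate 1 alone changed with list length. Of the 903 in the deposited lists, 59.4% and 44.4% had a peak in 48 to 72 h replicates 1 and 2, 7.42% and 3.77% in CNS replicates 1 and 2, and 28.5% to 90.6% in the 6 epidermis lists. T2 replicate 1 (28.5%) and T3 replicate 1 (30.6%) were again the lowest of the epidermis lists. Of all merged regions, 71.6% and 75.3% had a peak in CNS and 21.0% to 45.0% in epidermis. At equal size the 2140 regions of this kind were called in CNS in 39.1% and 42.3% of cases and in epidermis in 17.9% to 53.6%, against 79.9% and 83.5% and 27.9% to 53.4% of all merged regions.

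The share of peaks on ChLG1 was 5.92% and 5.93% in the 0 to 24 h lists and 5.37% and 5.78% in the 24 to 48 h lists. Both younger lists lay above both older ones, and the difference was not tested.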
